A study of Mus musculus with 2 samples.

Results

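The 39 genes described here encode Wnt ligands, their receptors, and a small set of secreted antagonists and target genes of the pathway. They were listed by name and not by a cut on any value in the files, though earlier results of these data were known. All 39 were found among the 21851 protein-coding genes of the GENCODE M21 annotation. They fell into 18 ligands (all Wnt genes but Wnt8a), 14 receptors (10 frizzled genes with Lrp5, Lrp6, Ror1 and Ror2), 5 antagonists (Dkk1, Dkk2, Dkk3, Sfrp1 and Sfrp2) and 2 target genes (Axin2 and Lef1). The ligands were set against the receptors, and both against all protein-coding genes.

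The study mapped chromatin accessibility by DNase-seq in the hippocampus of male mice aged 8 to 10 months of the hybrid strain B6CASTF1/J, bred from C57BL/6J and CAST/EiJ. DNase I cuts DNA that nucleosomes and bound proteins leave free, so dense cuts form a peak and a short protected stretch inside a peak is a footprint. The 2 replicates form 1 group. Each was pooled from 2 biosamples, and their donor label was the same. No treatment or second genotype was included, and the tissue label was a layer of the hippocampus with no layer named. Because the replicates are pools of whole tissue, a low peak can come from few cells with an open site or from a site that is little used in many cells, and these cannot be told apart.

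Wnt proteins are secreted lipid-modified ligands that bind frizzled receptors on nearby cells. With the co-receptors Lrp5 and Lrp6 they stabilise beta-catenin, which enters the nucleus and works with TCF/LEF factors at target genes such as Axin2. Other ligand and receptor pairs, including those with Ror1 and Ror2, act without beta-catenin. In the hippocampus the pathway is known for its part in patterning, in adult neurogenesis and at synapses.

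The sequences that carry the main sites follow, all from GRCm38 (mm10) on the strand of the gene, 5′ to 3′. In the first set the capitals mark bases inside footprints of both replicates. It holds the tallest shared promoter peak of each class. For Ror1 and Axin2 the bases before the first exon are shown, and for Axin2 also 30 bases round a match to the TCF/LEF motif. The Wnt7b peak is at chr15:85583141-85583340, the Dkk2 peak at chr3:132084141-132084320, the part of Ror1 at chr4:100095701-100095790 and the parts of Axin2 at chr11:108920241-108920348 and chr11:108920415-108920444.
Wnt7b promoter: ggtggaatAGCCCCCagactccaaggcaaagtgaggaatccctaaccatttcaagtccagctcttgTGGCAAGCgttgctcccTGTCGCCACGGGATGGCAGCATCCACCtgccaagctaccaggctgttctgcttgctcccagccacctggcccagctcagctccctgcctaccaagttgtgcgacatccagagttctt
Ror1 promoter: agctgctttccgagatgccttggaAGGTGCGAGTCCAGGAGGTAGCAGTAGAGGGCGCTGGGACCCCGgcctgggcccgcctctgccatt
Dkk2 promoter: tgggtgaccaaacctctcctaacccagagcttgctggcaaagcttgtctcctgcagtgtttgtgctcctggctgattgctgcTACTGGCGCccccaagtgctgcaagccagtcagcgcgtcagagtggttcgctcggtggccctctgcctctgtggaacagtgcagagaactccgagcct
Axin2 promoter: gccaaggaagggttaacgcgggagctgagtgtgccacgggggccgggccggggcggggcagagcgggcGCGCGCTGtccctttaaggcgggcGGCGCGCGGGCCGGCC
Axin2 TCF/LEF site: GAGCCGGCTGCGCTTTGataaggtcctggc

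The second set holds the tallest distal peaks of the ligands and of the receptors, with the same use of capitals. The Wnt10a peak (chr1:74808201-74808420) lies downstream of the gene. The Ror2 peak lies in the last exon, so only 30 bases round each of its matches to the CTCF motif are shown, at chr13:53109743-53109772 and chr13:53109641-53109670. CTCF is a zinc finger protein that anchors chromatin loops.
Wnt10a distal: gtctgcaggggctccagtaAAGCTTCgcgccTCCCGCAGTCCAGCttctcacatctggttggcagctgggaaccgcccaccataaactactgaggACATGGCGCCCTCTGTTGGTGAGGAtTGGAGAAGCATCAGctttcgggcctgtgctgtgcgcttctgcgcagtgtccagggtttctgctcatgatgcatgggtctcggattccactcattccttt
Ror2 distal site 1: GCTCCGTGAGCCCCCTGCTGGCGGAGGATG
Ror2 distal site 2: CTCGATGCTGCCATCTGCTGGAGTCCaaag

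The third set holds distal peaks with the most matches to the TCF/LEF motif, and here the capitals mark those matches (CTTTGA or its reverse complement TCAAAG). The Wnt3a peak at chr11:59239041-59239260 is downstream of the gene and the Wnt5b peak at chr6:119522121-119522420 is in an intron.
Wnt3a distal: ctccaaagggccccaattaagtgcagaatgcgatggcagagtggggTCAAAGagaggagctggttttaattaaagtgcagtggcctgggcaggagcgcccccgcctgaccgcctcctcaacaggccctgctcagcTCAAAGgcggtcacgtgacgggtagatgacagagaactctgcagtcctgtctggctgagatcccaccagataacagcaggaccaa
Wnt5b distal: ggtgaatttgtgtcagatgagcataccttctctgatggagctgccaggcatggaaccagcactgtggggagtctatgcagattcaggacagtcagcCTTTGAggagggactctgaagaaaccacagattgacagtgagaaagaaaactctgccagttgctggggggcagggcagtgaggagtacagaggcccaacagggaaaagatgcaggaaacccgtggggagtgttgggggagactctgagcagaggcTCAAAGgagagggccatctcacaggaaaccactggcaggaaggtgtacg

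A promoter was counted as accessible when a peak overlapped the 1000 bp to either side of a start site of a protein-coding transcript, and its height is that of its tallest peak in the authors' unit. Among the 39 genes 22 were accessible in both replicates (56.4%), against 62.6% of all protein-coding genes. The share of the ligands was 44.4% (8 of 18) and that of the receptors 71.4% (10 of 14). Of the other genes 3 had a promoter peak in replicate 1 only (Wnt6, Fzd6 and Sfrp2), Wnt4 had one in replicate 2 only, and 13 had none in either.

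The accessible ligand promoters were those of Wnt2, Wnt5a, Wnt5b, Wnt7a, Wnt7b, Wnt9a, Wnt11 and Wnt16. Wnt7b had the tallest, at 2.98 in replicate 1 and 2.66 in replicate 2. Wnt7a, known as a synaptic organiser, followed at 2.50 and 2.80, and Wnt11, best known for signalling without beta-catenin, had 2.20 and 1.70. These 3 ligands lay within the range of the receptors, though the Wnt11 peak is in an intron, upstream of an internal start site. Wnt9a had 1.24 and 1.25, and Wnt16 had 0.912 and 0.588. The lowest were Wnt5a (0.669 and 0.510), Wnt2 (0.440 and 0.549) and Wnt5b (0.420 and 0.426). All 8 were below the median of accessible promoters of all genes in both replicates, and they stood between percentiles 2.87 and 44.3 of it. In 1 replicate each, Wnt6 had a height of 0.381 and Wnt4 of 0.471.

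Receptor promoters were taller. Ror1, a receptor tyrosine kinase that binds Wnt5a, had the tallest of all 39 genes, at 4.13 in replicate 1 and 3.82 in replicate 2, at percentile 59.2 of accessible promoters. Fzd7 had 3.51 and 3.10, Fzd4, which also binds the ligand Norrin, had 3.50 and 2.29, and Fzd1 had 3.44 and 2.63. Fzd8 had 2.45 and 2.20, Fzd3, a receptor of axon guidance, had 2.24 and 1.54, and Fzd9 had 2.01 and 1.82. The co-receptor Lrp6 had 2.03 and 1.57, Fzd5 had 1.95 and 1.27, and Fzd2 had 1.66 and 1.41. All 10 were higher in replicate 1. The scale differed between the libraries, since the median log2 ratio of replicate 1 over replicate 2 was 0.19 over all paired peaks.

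Fzd6 had a peak of 0.282 in replicate 1 and none in replicate 2. Fzd10, Lrp5 and Ror2 had no promoter peak in either replicate. Each of the 2 related pairs of receptors was thus split, with Lrp6 accessible and Lrp5 not, and with Ror1 accessible and Ror2 not.

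The median height of accessible promoters was 1.08 in replicate 1 and 0.920 in replicate 2 for ligands, 2.35 and 2.01 for receptors, and 3.59 and 2.89 for all genes. As means of the 2 replicates these were 0.998 ± 0.110 for ligands, 2.18 ± 0.239 for receptors and 3.24 ± 0.498 for all genes (SD, n = 2). The gap between ligands and receptors was larger than the difference between replicates. It was much narrower with the authors' shorter peak list, in which 5 ligands and all 10 receptors stayed accessible and the medians were 1.95 and 2.18. The ligand median also depends on which ligands enter it. Over the 9 ligands with a peak in replicate 2, replicate 1 being left out, it was 0.588. The ranges overlapped, from 0.420 to 2.98 in ligands against 1.66 to 4.13 in receptors in replicate 1, and from 0.426 to 2.80 against 1.27 to 3.82 in replicate 2.

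**Figure D1:**
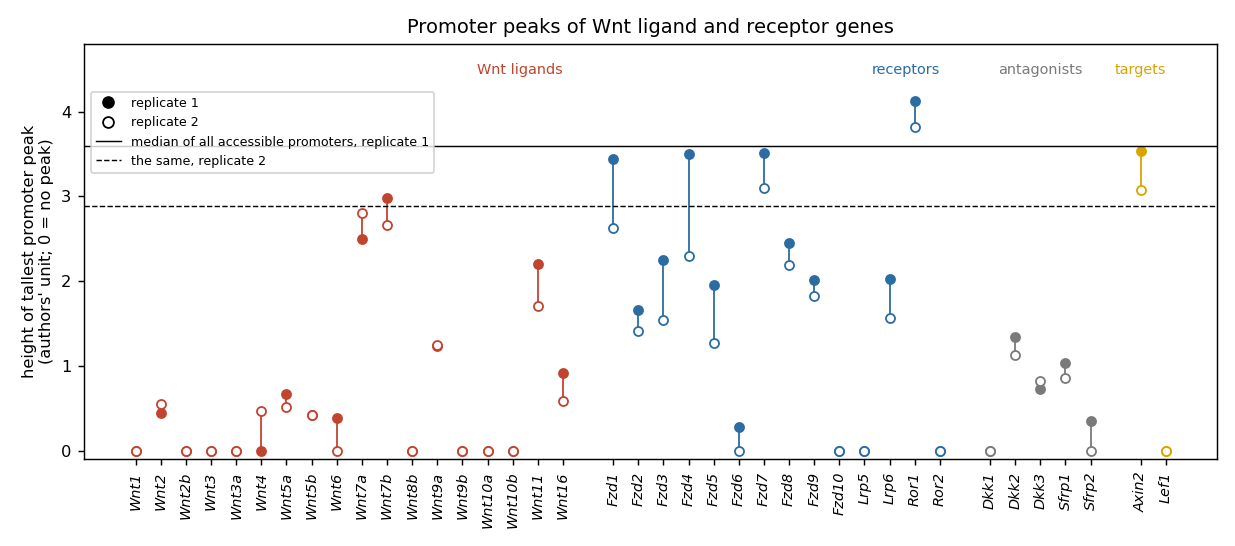
Height of the tallest promoter peak of each of the 39 genes (y axis, authors' unit, 0 where no peak was called) in replicate 1 (filled) and replicate 2 (open), with lines at the medians of all accessible promoters. Ror1 is above both lines, and the 3 tallest ligands, Wnt7b, Wnt7a and Wnt11, lie within the range of the receptors.

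Among the antagonists, which bind Wnt proteins or block the co-receptors, Dkk2 had promoter heights of 1.34 in replicate 1 and 1.13 in replicate 2. Sfrp1, a secreted frizzled-like protein, had 1.04 and 0.859, and Dkk3, a family member with an uncertain role in the pathway, had 0.728 and 0.820. Sfrp2 had 0.354 in replicate 1 and no peak in replicate 2. Dkk1, an antagonist of Lrp5 and Lrp6, had no promoter peak in either.

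The target genes differed from each other. Axin2, which encodes a feedback inhibitor that is widely read as a reporter of beta-catenin signalling, had 3.53 in replicate 1 and 3.08 in replicate 2. Lef1, which encodes a nuclear partner of beta-catenin, had no promoter peak in either replicate.

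The tallest promoter peaks of ligands and receptors also differed in position. In 8 of 10 accessible receptors the midpoint of the tallest promoter peak was within 250 bp of a start site in both replicates, and in 78.6% of all accessible genes. In the ligands this held for 0 of 8. The tallest ligand peaks lay upstream at Wnt7b (768 and 758 bp), Wnt11 (774 and 764 bp), Wnt7a (528 bp in both) and Wnt5b (376 and 332 bp). They lay downstream of the start at Wnt2 (632 and 652 bp), Wnt5a (601 and 651 bp) and Wnt9a (1061 and 1067 bp, where only the edge of the peak reached the window). At Wnt16 the tallest peak was 66 bp upstream in replicate 1 and 623 bp downstream in replicate 2. At Wnt11 the nearest start was an internal one, and the peak lies in an intron of the gene. With only the 5′ end of each gene counted, Wnt11 was not accessible. These positions follow the tallest peak only. Wnt16, Wnt7a and Wnt7b each had a further peak shared by both replicates nearer a start. It was 66 bp upstream at Wnt16 (0.912 and 0.517), 147 bp downstream at Wnt7a (0.584 and 0.517) and 160 bp downstream at Wnt7b (0.794 and 0.768). The 2 exceptions among the receptors were Fzd7, at 403 and 393 bp upstream, and Lrp6, at 8 bp in replicate 1 and 348 bp in replicate 2. With windows of 500 bp, 4 ligands (Wnt5b, Wnt7a, Wnt7b and Wnt16) and the same 10 receptors were accessible.

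**Figure D2:**
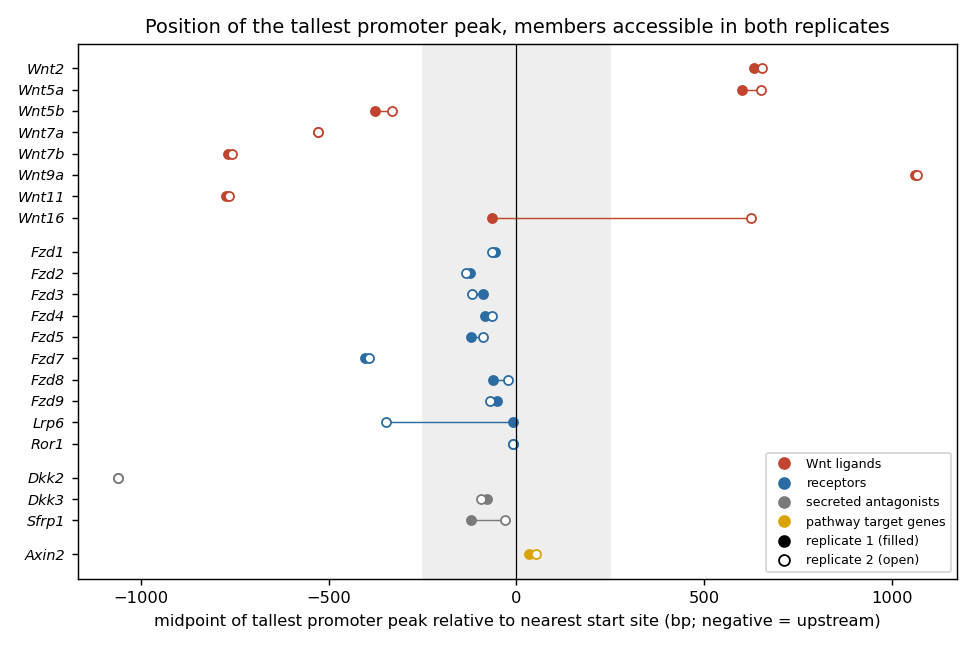
Midpoint of the tallest promoter peak relative to the nearest start site (x axis, bp, negative upstream) for the 22 genes accessible in both replicates, with replicate 1 filled and replicate 2 open. The shaded band is 250 bp to either side, and 8 of 10 receptors but 0 of 8 ligands lie inside it in both replicates.

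Promoters rich in CpG are open in most tissues, so the members were set beside genes of like CpG content. The CpG observed/expected ratio in the 500 bp to either side of the start had a median of 0.743 in ligands, 0.826 in receptors and 0.606 in all genes. In the 3 highest deciles 13 of 20 members were accessible in both replicates (65.0%), against 96.1% of all genes there. The 13 were 5 of 7 ligands (71.4%), 6 of 10 receptors (60%), 1 of 2 antagonists and Axin2. The other 7 were Wnt2b, Fzd10, Lrp5 and Ror2 with no peak, and Wnt4, Fzd6 and Sfrp2 with a peak in 1 replicate. Within these deciles the ligand share was thus the higher with the main settings, the reverse of the order over all ligands and receptors. This order rests on few genes. With the shorter peak list Wnt5b and Wnt9a were no longer accessible, and with windows of 500 bp Wnt9a and Wnt11 were not. The 6 receptors stayed accessible in both, so the receptor share was then the higher. In the top decile alone 7 of 7 members were accessible, close to the 97.2% of all genes in that decile.

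**Figure D3:**
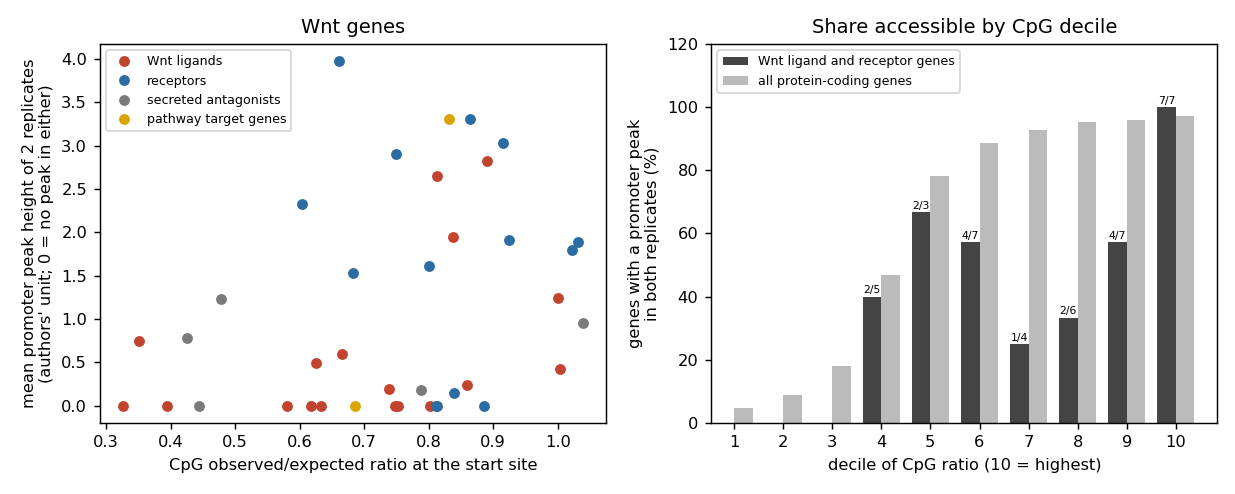
Left, CpG observed/expected ratio (x axis) and mean promoter height over 2 replicates (y axis, authors' unit, a replicate without a peak counted as 0) for each member. Right, share of genes accessible in both replicates by CpG decile for the members (dark, counts above the bars) and all protein-coding genes (grey). The members are lower in each of deciles 4 to 9 and reach 7 of 7 in decile 10.

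The 13 genes without a promoter peak were Wnt1, Wnt2b, Wnt3, Wnt3a, Wnt8b, Wnt9b, Wnt10a, Wnt10b, Fzd10, Lrp5, Ror2, Dkk1 and Lef1. For 11 of them the authors' false discovery rate files listed no base in the promoter window of either replicate. This share is below the 96.6% of all genes without a promoter peak. Wnt9b had 15 bp listed in replicate 2 and Lef1 had 2 bp in replicate 1. The nearest peak was 2920 bp away in replicate 1 and 2932 bp in replicate 2 for Wnt1, a ligand of the midbrain and dorsal neural tube, and 13689 and 13669 bp for Wnt10b. For Lrp5 it was 4956 and 4976 bp, and for Ror2 it was 9569 bp in replicate 1 and 23677 bp in replicate 2. Over the 13 genes the median was 5056 and 6160 bp. A value of 0 says only that no peak was called at this depth.

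The median number of footprints per accessible promoter was 4 in replicate 1 and 2.5 in replicate 2 for ligands, 6.5 and 6.5 for receptors, and 5 and 6 for all genes. Over the 9 ligands with a peak in replicate 2 it was 2, and with windows of 500 bp it was 1.75 in ligands as a mean of the replicates. Footprints were summed over all promoter peaks of a gene. The median number of such peaks was 1.5 and 2 in accessible ligands, 3 and 3 in receptors and 2 and 2 in all genes. The part of peak number and height in the footprint counts was not tested. Axin2 had 13 and 9 footprints, Fzd8 had 11 and 13, and Fzd1 had 7 and 12. Lrp6 had 13 footprints in replicate 1 and 5 in replicate 2, so single genes varied between replicates. Among ligands Wnt11 had 5 and 9, while Wnt7b had 4 and 3. The Ror1 promoter, the tallest, had 6 and 2, of which its tallest peak held 3 and 1.

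Distal peaks, those in the gene body and 10 kb to either side that touched no promoter window of a coding gene, were also counted. They were present in both replicates at 17 of 18 ligands and 11 of 14 receptors, against 68.3% of all genes. The ligand without any was Wnt10b. Density had a median per 10 kb of 0.772 in replicate 1 and 0.888 in replicate 2 for ligands, 0.630 and 0.410 for receptors, and 0.424 and 0.367 for all genes. The median was higher in ligands in both replicates, by 0.141 in replicate 1 and 0.478 in replicate 2, so the size of the difference was not well fixed by 2 replicates. With the shorter peak list the medians, as means of the replicates, were 0.410 in ligands and 0.152 in receptors, beside 0.830 and 0.520 with the longer list. Gene length differed, with a median of 22348 bp in ligands, 7987 bp in receptors and 17380 bp in all genes. Its part in the densities was not tested.

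The tallest distal peak exceeded the promoter peak in both replicates at 13 of 18 ligands and 4 of 14 receptors, against 30.6% of all genes. Genes with no promoter peak and a distal peak in both enter this count by definition. Among accessible promoters it held for 4 of 8 ligands and 0 of 10 receptors, against 20.7% of all accessible genes.

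The tallest distal peak of any member was that in the last exon of Ror2 (chr13:53109621-53109800), with 4.75 in replicate 1 and 4.998 in replicate 2, in a gene with no promoter peak. The Wnt10a peak downstream of the gene had 3.22 and 4.21. Wnt10a and Wnt6 are neighbours and share a further peak (chr1:74787921-74788120) between them with 2.51 and 2.83. Wnt9a had 3.18 and 3.71 at a site 4027 bp upstream of its start (chr11:59302781-59303020). Axin2 had 3.54 and 3.31 in an intron (chr11:108925301-108925500), beside 3.53 and 3.08 at its promoter. Wnt7a had 2.81 and 2.15 downstream of the gene, and Wnt2b, with no promoter peak, had 2.57 and 2.23 at 6260 bp upstream. Wnt1 had 1.87 and 2.34 at chr15:98799481-98799680 downstream. Each of these sites was called in both replicates. A peak near a gene may act on another gene, which these files do not show.

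**Figure D4:**
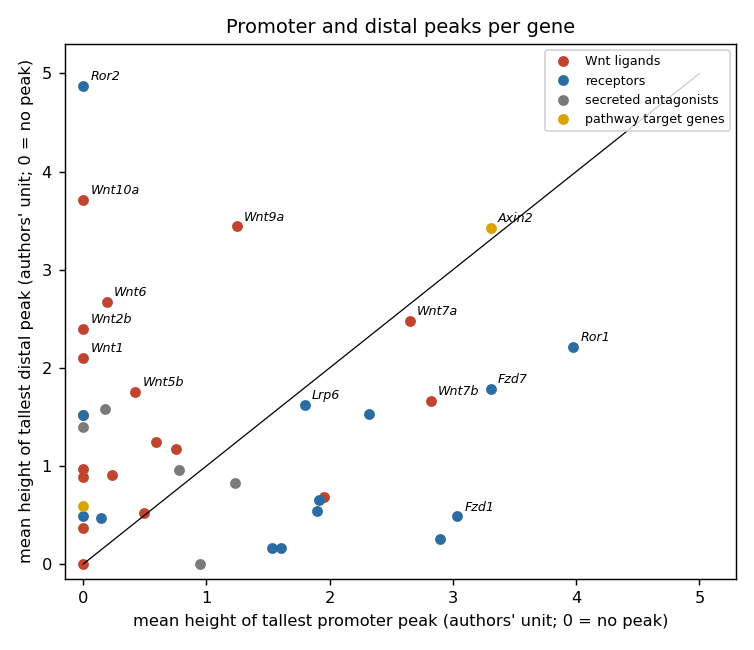
Mean height over 2 replicates of the tallest promoter peak (x axis) and the tallest distal peak (y axis) of each gene, both in the authors' unit with 0 for no peak, and the line of equal height. Ror2, Wnt10a, Wnt2b and Wnt1 lie on the left edge with no promoter peak, and all 10 accessible receptors lie below the line.

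The remaining ligands had lower distal peaks. The tallest at Wnt5b, a gene with 11 such peaks in the first replicate and 13 in the second, was 1.73 and 1.78 high. At Wnt7b it was 1.71 and 1.63, at Wnt16 1.38 and 0.962, and at Wnt5a 1.21 and 1.27. Wnt3a, known for its role in forming the hippocampus in the embryo, had 1.54 and 1.51 at a site (chr11:59298041-59298260) that is also within the reach of its neighbour Wnt9a. The tallest distal heights of Wnt3, Wnt4, Wnt8b, Wnt9b, Wnt11 and Wnt2 lay between 0.341 and 0.952 in replicate 1 and between 0.387 and 0.994 in replicate 2. So of the 8 ligands without a promoter peak, 7 had distal peaks in both replicates. The tallest of these ranged from Wnt8b, at 0.341 and 0.387 at different sites, to Wnt10a.

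Among receptors distal peaks were most numerous at the long genes. Ror1 had 24 in replicate 1 and 12 in replicate 2, with the tallest at 1.85 and 2.58, and Ror2 had 12 and 12. Lrp6 had 11 and 6, with the tallest at 1.77 and 1.47, and Lrp5, with no promoter peak, had 8 and 9, with the tallest at 1.54 and 1.505. Most frizzled genes are short and often have a single coding exon, though Fzd3 (70015 bp) and Fzd6 (32155 bp) are longer. Together the frizzled genes had 18 and 14 distal peaks. The tallest of these were at Fzd7 (1.94 and 1.64) and Fzd8 (1.54 and 1.53). Fzd4 and Fzd5 had no distal peak in replicate 1, and Fzd2 had none in replicate 2. The other 5 frizzled genes (Fzd1, Fzd3, Fzd6, Fzd9 and Fzd10) had distal peaks of at most 0.755 in replicate 1 and 0.549 in replicate 2.

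Of the antagonists Dkk1, with no promoter peak, had 1 distal peak of 1.29 in replicate 1 and 1.498 in replicate 2. Sfrp2 had its tallest at 1.42 and 1.73, Dkk3 at 1.01 and 0.898 and Dkk2 at 0.919 and 0.730, while Sfrp1 had none. Axin2 had 8 and 6 distal peaks. Lef1 had 6 and 3, the tallest at 0.518 and 0.672, which are different sites, the first called in replicate 1 alone.

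Of 112 distal peaks paired between replicates 87 held a footprint in both (77.7%), against 79.4% of all distal pairs. The ligands had 43 of 54 and the receptors 30 of 41. Motifs were searched as exact letters on both strands in the 200 bp at the centre of each pair. The TCF/LEF motif (CTTTGA) was in 6 of 36 promoter pairs of the members, against 6.6% of all promoter pairs, and in 11 of 112 distal pairs, against 11.8% of all distal pairs. Both paired Axin2 promoter peaks held 1 match, and in the taller, shown above, the shared footprint covers the first 5 letters of the match and ends inside it. The other promoter pairs with a match were those of Dkk2, Lrp6, Wnt2 and Wnt9a. The Dkk2 peak is 180 bp long, and its match lies in the searched bases outside the peak, so the sequence shown has none. A promoter pair of Fzd7 (chr1:59482581-59482783) had 1 match when its whole length was searched, but none in the central 200 bp. The Wnt3a and Wnt5b distal peaks shown above held 2 matches each over their whole length, none inside a shared footprint.

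The CTCF motif was in 13 of 112 distal pairs, against 8.68% of all. Among them were the 2 matches of the Ror2 exon peak and the Wnt10a peak, which overlap shared footprints, and the site shared by Wnt6 and Wnt10a. The CTCF pattern was widened after the sequences shown above had been seen. This count and these matches are thus not independent of the choice of pattern, and nothing is concluded from them. The NEUROD motif (CAGATGG), bound by neuronal bHLH factors, was in 15 of 112 distal pairs, against 17.2%. The SP/KLF motif (GGGGCGGGG), common in CpG-rich promoters, was in 5 of 19 receptor promoter pairs (2 at Fzd4 and 1 each at Fzd5, Fzd7 and Fzd9) and in 0 of 12 ligand promoter pairs, against 12.8% of all promoter pairs. A match describes the letters and does not show that a factor is bound.

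The 148 member peaks paired between replicates varied as other peaks did. In 44 of them the heights differed beyond counting error (29.7%), against 30.2% of all pairs. These were 10 of 36 promoter pairs, against 35.2% of all promoter pairs, and 34 of 112 distal pairs, against 28.9% of all distal pairs. The promoter pairs that were higher in replicate 1 after scaling included Lrp6 (2.03 against 1.14), Fzd4, Fzd5 and Fzd3, and those higher in replicate 2 included Wnt7a and Dkk3. Of the 34 distal pairs 29 were higher in replicate 2 after scaling, and of all distal pairs beyond counting error 64.4% were. After scaling by the median ratio of all pairs, 1 of the 148 differed by more than 2-fold, an intronic peak of Lef1 (chr3:131214981-131215180) with unscaled heights of 0.322 in replicate 1 and 0.672 in replicate 2. Before scaling an intronic peak of Wnt5b (chr6:119452201-119452500) did so too, with 1.73 and 0.820. A further 52 distal sites were called in replicate 1 alone and 27 in replicate 2 alone.

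**Figure D5:**
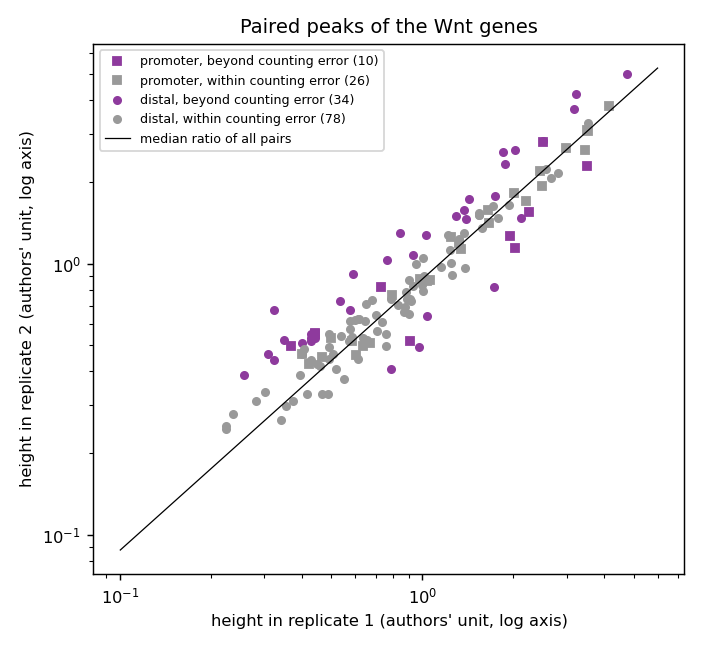
Heights of the paired peaks of the members in replicate 1 (x axis) and replicate 2 (y axis), both in the authors' unit on log axes, for promoter (squares) and distal (circles) peaks. Purple marks the 44 pairs that differ beyond counting error, and the line is the median ratio of all pairs.

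Of 46 other genes of the pathway, in lists chosen by role, 36 were accessible in both replicates (78.3%), beside 62.6% of all genes. In the 3 highest CpG deciles these were 20 of 22 (90.9%), beside 96.1% of all genes there. All 10 cytoplasmic and all 10 nuclear genes were accessible in both replicates. The tallest were the kinase gene Gsk3b with 18.4 in replicate 1 and 10.5 in replicate 2, Btrc, part of the ligase that degrades beta-catenin, with 14.9 and 12.4, and Gsk3a with 10.2 and 6.53. The co-repressor genes Tle1 (13.2 and 9.49) and Tle3 (9.70 and 8.05) led the nuclear list, followed by Pygo2 with 7.75 and 4.51. Outside the cell and at the membrane the counts were 4 of 7 secretion and agonist genes, 7 of 9 other ligand and receptor genes and 5 of 10 other antagonists. Lgr4, a receptor of R-spondins, had 6.26 and 4.18, the ligase gene Znrf3 had 4.38 and 3.40, and Rnf43 had 2.76 and 2.50. Porcn and Wls, needed for Wnt secretion, had 2.59 and 1.98, and 1.29 and 1.17. Rspo2 had 1.08 and 0.839. Of the antagonists Kremen1 had 3.92 and 2.71, Frzb had 1.35 and 0.930 and Sfrp4 had 0.912 and 0.917. Notum, Rspo1, Wnt8a, Musk, Dkk4 and Dkkl1 had no promoter peak in either replicate.

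The libraries held 144270 peaks in replicate 1 and 124426 in replicate 2. Markers of hippocampal neurons were accessible in both replicates for 6 of 6 pyramidal cell and 5 of 6 granule cell genes, against 62.6% of all protein-coding genes. The counts were 3 of 6 for inhibitory neurons, 5 of 6 for astrocytes, 4 of 6 for oligodendrocytes, 1 of 6 each for microglia and endothelial cells, 3 of 6 for mural cells and fibroblasts and 2 of 6 for choroid plexus and ependyma. The median CpG ratio of the lists ran from 0.216 for microglia to 0.750 for granule cells, beside 0.606 in all genes. The counts were not matched for it, so they do not measure the share of each cell type. Signal from each of these cell types can enter the peaks of the Wnt genes, and their part was not tested.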

How the data were processed

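DNase-seq peaks, false discovery rates and footprints were deposited for each of the 2 samples. No source used here names the aligner or the callers. The deposited peak height is a signal whose scale is not stated. Heights under 200 steps were whole multiples of a smallest step within 0.1 step (100% in both samples), and there are 152 steps per unit in replicate 1 and 155 in replicate 2. The deposited false discovery rates (a p-value or q-value scale, at most 0.05) and the deposited footprint column (constant, 0.01, read as a p-value threshold) served only to locate bases. The longer peak list was used.

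Gene models were GENCODE M21 (basic set, protein-coding) and sequence was GRCm38.p6 from RefSeq. Overlap was 1 bp or more. Peaks were paired as mutual best overlaps. Counting error came from an exact binomial test of whole steps at 0.05, given the totals of all pairs, with no p-value printed since cuts are not independent. Functions were tested on simulated data. Tools were Python 3.11.15, numpy 2.4.6, pandas 2.3.3, scipy 1.17.1, pysam 0.24.0, bedtools 2.31.1, samtools 1.23.1 and matplotlib 3.10.9.

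Both samples formed 1 group, so no test between conditions was made. Replicates may be technical in part, since both pools carry 1 donor label. Members, lists, motifs and tests were chosen with earlier results of these data known, and the CTCF motif was widened to a degenerate pattern after the sequences had been seen. All 39 members are named. Of each other pathway list the text names up to 3 genes with the tallest promoter peak and up to 2 with none. Sequences shown are those of the tallest and most TCF/LEF-rich shared peaks. Fzd6, whose peak is longer than 300 bp and tied for TCF/LEF matches, is not shown. Alternatives covered the peak list, start sites, window, flank, overlap and scaling, and each replicate was left out in turn.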

Additional observations from a re-analysis of the deposited data

How the results depend on the processing

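The sign of the ligand minus receptor difference was kept under every alternative run, while sizes varied. This held in 7 of 7 for accessible share, 7 of 7 for height, 7 of 7 for footprints and 9 of 9 for distal density. The runs are not independent of each other or of the main result. For distal density, leaving out a replicate returns the value of the other replicate already given. Leaving out only the promoters of the gene itself did not change these medians. None of these runs matched genes for CpG content. In the 3 highest CpG deciles the accessible share was 71.4% in ligands and 60% in receptors with the main settings, the opposite order. That opposite order was not kept with the shorter peak list, the 500 bp window or only the 5′ end of each gene. Nor was it kept when the midpoint of a peak had to lie inside the window. With the shorter peak list 5 ligands were accessible, median height was 1.95 in ligands, distal density was 0.410 in ligands and 0.152 in receptors, receptor footprints were 5.75, and 28 of 80 pairs differed beyond counting error. With only the 5′ end of each gene the ligand height was 0.750. With a 500 bp window 4 ligands were accessible, with a height of 0.766 and 1.75 footprints, and receptors had 5.5 footprints. With a 2000 bp window the ligands had a height of 0.827, a distal density of 0.736 and 5 footprints, and the receptors had 7 footprints. With heights summed over all promoter peaks the medians were 1.34 in ligands and 3.76 in receptors. Counting every footprint that overlapped by 1 bp or more gave 6.75 for receptors. The causes of these changes were not tested.

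Leaving out 1 replicate at a time gave a median ligand height of 0.588 to 0.912, ligand footprints of 2 to 4 and receptor footprints of 6 to 6.5. In all, 49 of 70 values moved by less than the spread between replicates, or, for counts, by less than 1.5 times, and 21 moved by more. No paired analysis was possible because the samples form 1 group. Peak calls depend on depth, which is not given as read counts, and 2 replicates give little precision.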
